A study of Homo sapiens with 12 samples.

Results

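The 10 genes that encode the machinery placing and reading methylation on lysine 9 of histone H3 (H3K9) were followed across 12 RNA-seq libraries. They were TRIM28, SETDB1, ATF7IP, MPHOSPH8, MORC2, EHMT1, EHMT2, SUV39H1, SUV39H2 and CBX5. The members were chosen by name as a functional group, and the rows of the deposited table that carry each symbol were summed. This gave 10 of the 46639 symbols in the table.

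The libraries came from MOLM-13, an established human acute myeloid leukemia (AML) cell line, which per the labels grew in medium with GM-CSF. One group of 3 libraries was untreated and carries the label of 96 h. The other groups carry the label of 72 h and hold 3 libraries each: cells given 100 nM decitabine (DAC), cells given 1 µM all-trans retinoic acid (ATRA), and cells given both drugs (DAC+ATRA). The untreated libraries are the only control, as no vehicle group was among them, and the study's methods describe a later start for ATRA than for DAC. The labels call the libraries technical triplicates, so every p-value measures the spread within 1 experiment on 1 cell line. Treatment and the labelled time cannot be told apart in comparisons with the untreated group.

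DAC is a nucleoside analogue that traps DNA methyltransferases, and ATRA is the ligand of the retinoic acid receptors. KRAB zinc finger proteins bind transposable elements and recruit TRIM28 (KAP1), which brings in SETDB1, a methyltransferase that trimethylates H3K9. ATF7IP stabilises SETDB1, while the HUSH complex, with its chromodomain subunit MPHOSPH8 (MPP8) and its partner ATPase MORC2, extends silencing over young L1 elements and integrated sequences. SUV39H1 and SUV39H2 trimethylate H3K9 in constitutive heterochromatin, EHMT1 (GLP) and EHMT2 (G9a) mono- and dimethylate it, and CBX5 (HP1 alpha) binds the methylated residue. DNA methylation and H3K9 methylation overlap in the silencing of repeats, and loss of either can release repeat RNA in leukemic cells.

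Values are normalised counts, that is reads divided by the size factor of their library. Untreated libraries held 8.95 to 11.9 M recovered reads (M stands for mega), DAC libraries 4.67 to 6.95 M, ATRA libraries 8.36 to 10.7 M and DAC+ATRA libraries 5.61 to 7.16 M. The myeloid identity was checked with 10 markers, all of which passed the filter on low values. FLT3 lay between 13870.5 and 14247 normalised counts in the untreated libraries, whereas the monocyte marker CD14 lay between 6.5 and 14.0. These markers moved with the drugs, in both directions. With DAC, 3 of the 10 were called higher and 1 lower (7.97% of all genes tested were called). With ATRA 1 was higher and 5 lower (26.0%), and with DAC+ATRA 3 were higher and 3 lower (28.9%). LYZ, the lysozyme of granulocytes and monocytes, is an example that does not stand for the list. Its mean was 41628 normalised counts in untreated, 153287 with DAC, 6819 with ATRA and 40819 with both drugs. The part of this shift in the results that follow was not tested. Among 11 markers of other blood and stromal cells, 3 were at 0 in all 12 libraries, CD8A and MS4A1 among them, and 4 passed the filter. The summed level of the latter list ran from 3609 to 4582 in the untreated libraries, from 5556 to 6222 after DAC, from 1494 to 1621 after ATRA and from 1869 to 2248 after both drugs, and most of it was PECAM1, which myeloid cells also express. Apart from PECAM1, which fell with ATRA, the B-cell gene CD79A (mean of 3.1 without treatment, 15.6 with ATRA and 33.8 with both drugs) and the collagen gene COL1A1 (8.0, 79.0 and 48.6) were called higher from low levels. With DAC, 3 of the 4 tested were called, all higher (7.97% of all genes). With ATRA and with DAC+ATRA, 2 of the 4 were called higher and 1 lower in each (26.0% and 28.9% of all genes). In these bulk samples, fewer cells of a kind and less RNA per cell cannot be told apart.

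The promoters of 3 of the 4 members called in any comparison are shown, because these genes passed the test in at least 1 comparison and DAC acts on methylated CG pairs. Each is the 250 bases before the RefSeq transcription start (GRCh38.p14), written 5′ to 3′ on the strand of the gene, with every CG in capitals. CBX5 lies on the minus strand (chr12:54280123-54280372), as does MORC2 (chr22:30968775-30969024), and MPHOSPH8 lies on the plus strand (chr13:19633409-19633658).
CBX5: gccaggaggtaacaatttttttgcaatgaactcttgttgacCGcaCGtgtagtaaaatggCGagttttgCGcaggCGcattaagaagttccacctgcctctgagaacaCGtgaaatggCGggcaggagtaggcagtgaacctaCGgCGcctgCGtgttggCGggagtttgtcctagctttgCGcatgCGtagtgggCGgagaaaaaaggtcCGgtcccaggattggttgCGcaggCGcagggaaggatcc
MORC2: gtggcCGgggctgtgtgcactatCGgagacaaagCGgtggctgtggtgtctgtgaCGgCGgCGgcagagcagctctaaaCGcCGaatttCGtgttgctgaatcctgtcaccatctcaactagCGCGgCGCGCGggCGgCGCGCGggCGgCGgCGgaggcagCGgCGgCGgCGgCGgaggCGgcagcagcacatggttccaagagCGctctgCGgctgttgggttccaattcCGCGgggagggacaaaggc
MPHOSPH8: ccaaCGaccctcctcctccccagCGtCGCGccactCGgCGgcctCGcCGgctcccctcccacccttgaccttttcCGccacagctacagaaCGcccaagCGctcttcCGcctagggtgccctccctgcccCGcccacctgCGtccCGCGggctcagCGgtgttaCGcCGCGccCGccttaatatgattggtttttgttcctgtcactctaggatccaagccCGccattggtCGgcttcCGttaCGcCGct

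RefSeq windows were found for 9 of the 10 members, all but TRIM28. The CBX5 window held 17 CG pairs, the MPHOSPH8 window 26 and the MORC2 window 31, against a median of 11 over 34788 promoter windows of the same length. Among the other members the count ran from 14 for ATF7IP to 43 for EHMT1, with 38 for SUV39H2. The RefSeq start used for EHMT1 lies 123952 bases from the start of the EHMT1 row with the highest level. The retinoid receptor half-site AGGTCA, searched on both strands, was found once in the MPHOSPH8 window and in no other member window, and 12.02% of all windows held it. The E2F-type letters TTTGGCGC, TTTGGCGG, TTTCGCGC and TTTCCCGC were found in no member window and in 2.83% of all windows. Methylation of these windows was not measured in the RNA libraries.

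EHMT2 was listed at 0 in all 12 libraries. Its symbol covers 25 rows of the table, of which 21 were not in GENCODE release 44, and the 4 matched rows shared all but 41 exonic bases with one another or with other rows. DAXX, a partner gene with 20 rows of which 16 were unmatched, was also listed at 0. Of 154 protein-coding symbols with at least 10 unmatched rows, 54.5% were listed at 0 in all libraries, compared with 22.9% of all 19937 protein-coding symbols. The listing at 0 is therefore given as it stands, with no statement on expression of EHMT2.

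The other 9 members passed the filter on low values (3 or more libraries with 10 or more normalised counts), which left 10642 protein-coding genes. Changes were tested with limma on log2(normalised count + 1) in 1 fit of all 12 libraries. P-values were adjusted by Benjamini-Hochberg over all genes tested, with 0.01 as the limit below which a change is termed called. Folds on this scale understate the change of low genes. Levels are compared between libraries only, never between genes, because the deposited rows are transcripts that share bases.

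**Figure D1:**
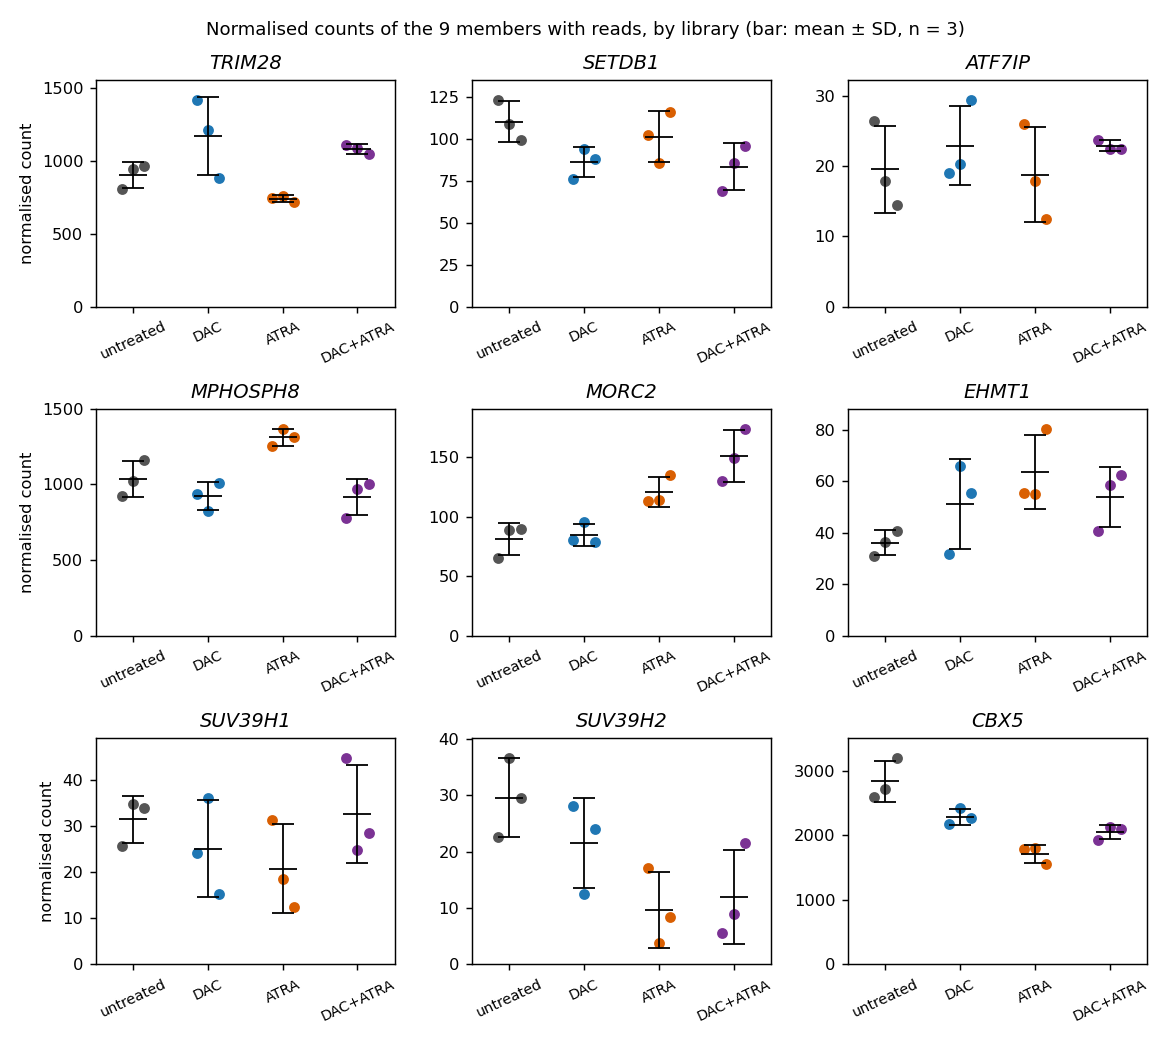
Normalised counts (y axis, linear, from 0) of the 9 members with reads in each library of the 4 groups (x axis). Points are libraries and bars give the mean ± SD (n = 3). All ATRA libraries of CBX5, at 1552 to 1802, lie below all untreated libraries, at 2599.8 to 3199, and all DAC+ATRA libraries of MORC2, at 130.2 to 173.6, lie above all untreated and DAC libraries.

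With DAC alone, none of the 9 tested members was called, while 7.97% of all genes tested were called in this comparison. At an unadjusted p under 0.05 the count was 2 of 9 members, TRIM28 and CBX5, against 28.7% of all genes. DESeq2 and edgeR on the recovered reads also called 0 members. The libraries of DAC and untreated did not overlap for SETDB1 and CBX5, both lower, whereas 30.4% of all genes did not overlap. The median log2 change of the 9 members was −0.17, and that of all genes was −0.00406.

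With ATRA alone, 1 of 9 members was called, CBX5, which fell, and 26.0% of all genes were called. At an adjusted p under 0.05 the count was 5 of 9, with CBX5 and SUV39H2 lower and MORC2, EHMT1 and MPHOSPH8 higher, against 36.4% of all genes. Libraries did not overlap for 6 of 9 members (50.7% of all genes). The median change of the members was −0.13 and that of all genes −0.04 on the log2 scale.

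With DAC+ATRA, 2 of 9 members were called against untreated, MORC2, which rose, and CBX5, which fell (28.9% of all genes were called). Libraries of these groups did not overlap for 5 of 9 members (55.8% of all genes). Against DAC alone, 1 member, MORC2, was higher (18.8% of all genes were called), and 2 of 9 did not overlap (39.6% of all genes). Against ATRA alone, TRIM28 was higher and MPHOSPH8 lower, 2 of 9 members, with 11.9% of all genes called, and 3 of 9 did not overlap (39.9% of all genes). The interaction, which is the DAC effect in the presence of ATRA minus that in its absence, was called for 0 members by limma and for 1.60% of all genes. At an unadjusted p under 0.05 it counted 1 member, CBX5 (14.8% of all genes), which also had an adjusted p under 0.05 (3.63% of all genes). These comparisons share libraries and are not independent of each other.

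**Figure D2:**
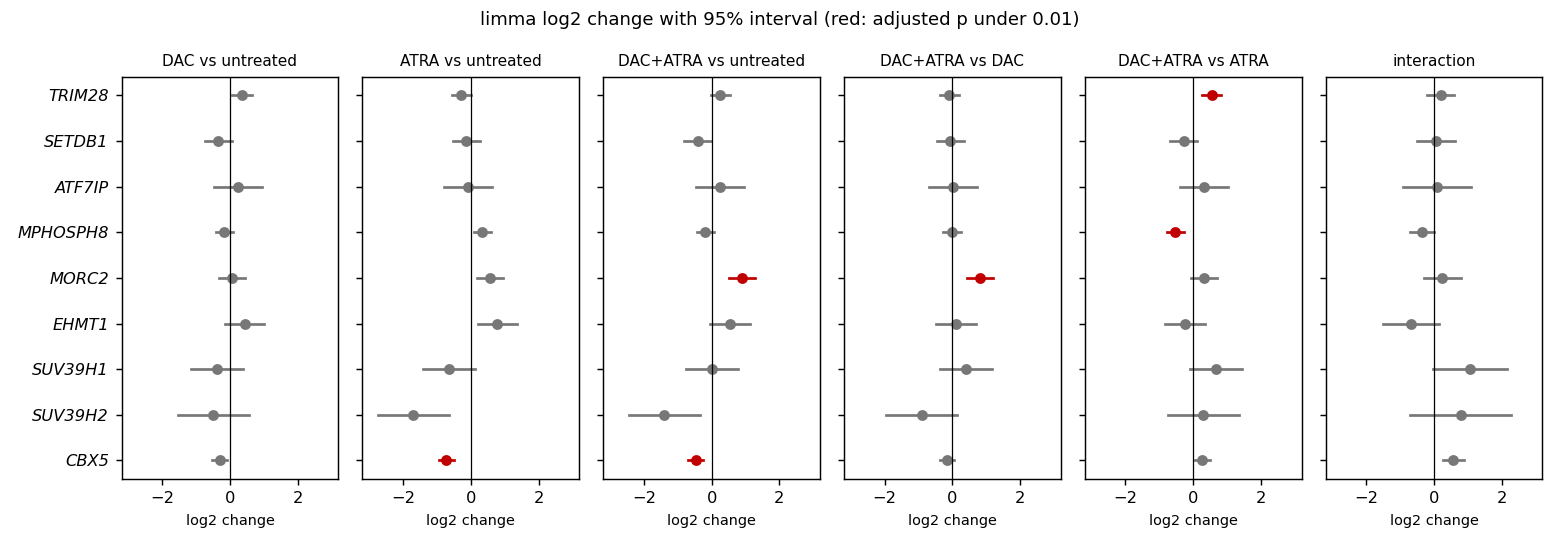
Log2 change of 9 members (x axis) with its 95% interval from limma in the 6 comparisons. Red marks an adjusted p under 0.01. CBX5 is red for ATRA and for DAC+ATRA against untreated, MORC2 in both comparisons of DAC+ATRA that lack an ATRA control, and TRIM28 and MPHOSPH8 in DAC+ATRA against ATRA.

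TRIM28 (ENSG00000130726.12, chr19:58544064-58550722 in hg38), the corepressor that KRAB zinc finger proteins recruit, had 804.1, 945.8 and 963.5 normalised counts in the untreated libraries and 1416, 1215 and 885.0 in the DAC libraries. It had 747.2, 762.0 and 716.5 with ATRA and 1113, 1088 and 1045 with DAC+ATRA. The ATRA libraries were the lowest of all and the DAC+ATRA libraries were close together, while DAC replicate 3 lay among the untreated libraries. DAC+ATRA was higher than ATRA by 0.54 ± 0.14 on the log2 scale (SE, limma adjusted p = 0.00747), a fold of 1.46 (95% interval 1.20 to 1.78). This call was lost when any ATRA or DAC+ATRA library was left out (adjusted p 0.0171 to 0.0333) or untreated replicate 2 (0.0123), and with no filter on low values (0.0128). Against untreated, DAC gave 0.35 ± 0.14 (limma adjusted p = 0.0916). Over 24 recomputed fits that value ran from 0.20 to 0.54, with an adjusted p of 0.00104 to 0.357. Only 1 of them called it, the fit without DAC replicate 3 (0.54, limma adjusted p = 0.00104). All TRIM28 reads fell on 1 of its 2 rows.

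SETDB1 (ENSG00000143379.13, chr1:150926263-150964744), the methyltransferase that TRIM28 recruits, had 122.9, 108.8 and 99.1 normalised counts in untreated and 76.3, 94.1 and 88.2 in DAC. It had 102.1, 85.6 and 116.2 with ATRA and 68.6, 85.5 and 96.0 with DAC+ATRA. Both groups with DAC lay below all untreated libraries, and the ATRA libraries overlapped with them. The log2 change was −0.35 ± 0.19 (SE) after DAC (limma adjusted p = 0.237) and reached −0.41 ± 0.19 after both drugs (limma adjusted p = 0.0963), neither called. ATF7IP (ENSG00000171681.13, chr12:14365676-14502931), which protects SETDB1 from degradation, ranged from 12.5 to 29.4 normalised counts over the 12 libraries and its groups overlapped throughout. Its intervals of the log2 change against untreated ran from −0.47 to 0.94 for DAC and from −0.78 to 0.64 for ATRA, so changes inside these ranges could not be seen at its 13 to 34 reads per library.

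MPHOSPH8 (ENSG00000196199.14, chr13:19633659-19673441), the chromodomain subunit of HUSH, had 924.6, 1023 and 1164 normalised counts in untreated and 933.7, 823.3 and 1007 in DAC. It had 1254, 1364 and 1311 with ATRA and 776.9, 968.0 and 1003 with DAC+ATRA. The ATRA libraries were higher than the other 9, which overlapped among themselves. DAC+ATRA was lower than ATRA by −0.52 ± 0.12 on the log2 scale (SE, limma adjusted p = 0.00426), a fold of 0.696 (95% interval 0.583 to 0.830). The call was lost without ATRA replicate 2 (adjusted p 0.0252), ATRA replicate 3 (0.0165), DAC+ATRA replicate 1 (0.0359) or DAC+ATRA replicate 2 (0.0110). ATRA against untreated gave 0.34 ± 0.12 (limma adjusted p = 0.0337), and the interaction was −0.35 ± 0.17 (limma adjusted p = 0.350). This gene has a single row of 4239 exonic bases that no other row shares, so its level does not depend on how reads were divided among transcripts.

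MORC2 (ENSG00000133422.14, chr22:30925130-30968774), the ATPase that acts with HUSH in compacting chromatin, had 65.3, 88.5 and 89.7 normalised counts in untreated and 80.1, 95.7 and 78.4 in DAC. The values were 112.9, 113.9 and 135.4 with ATRA and 130.2, 149.7 and 173.6 with DAC+ATRA. Untreated and DAC overlapped, and every library with ATRA lay above every library lacking it. The rise with DAC+ATRA was 0.89 ± 0.18 against untreated on the log2 scale (SE, limma adjusted p = 0.000699), a fold of 1.86 (95% interval 1.42 to 2.43). Against DAC it was 0.82 ± 0.18 (limma adjusted p = 0.00211), a call lost without DAC+ATRA replicate 3 (0.72, adjusted p 0.0188). Against ATRA it was 0.32 ± 0.18 (limma adjusted p = 0.248), not called, and the libraries of these groups overlapped. ATRA alone gave 0.58 ± 0.18 (limma adjusted p = 0.0193), which DESeq2 called (0.59, adjusted p 0.00806). DAC alone gave 0.07 ± 0.18 (limma adjusted p = 0.852), and the interaction was 0.25 ± 0.26 (limma adjusted p = 0.753), with a 95% interval of −0.30 to 0.79.

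MORC2 has 2 rows with reads. The canonical transcript ENST00000397641.8 held 78.8% of the normalised counts in the untreated group, 75.2% after DAC, 71.4% after ATRA and 82.3% after both drugs. A fit over 18241 rows was not limited to protein-coding genes. In it, this transcript rose by 0.95 ± 0.20 on the log2 scale with DAC+ATRA against untreated (SE, limma adjusted p = 0.00110). Of these rows, 20.5% were called in the same comparison. The other row, ENST00000215862.8, gave 0.52 ± 0.37 (limma adjusted p = 0.315) in that comparison and 1.00 ± 0.37 with ATRA (limma adjusted p = 0.0506). With DAC+ATRA this row had 12.6, 34.9 and 32.7 normalised counts in the 3 libraries, so the group share rests in part on replicate 1, with 9 reads. Whether the shares differ between groups was not tested.

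**Figure D3:**
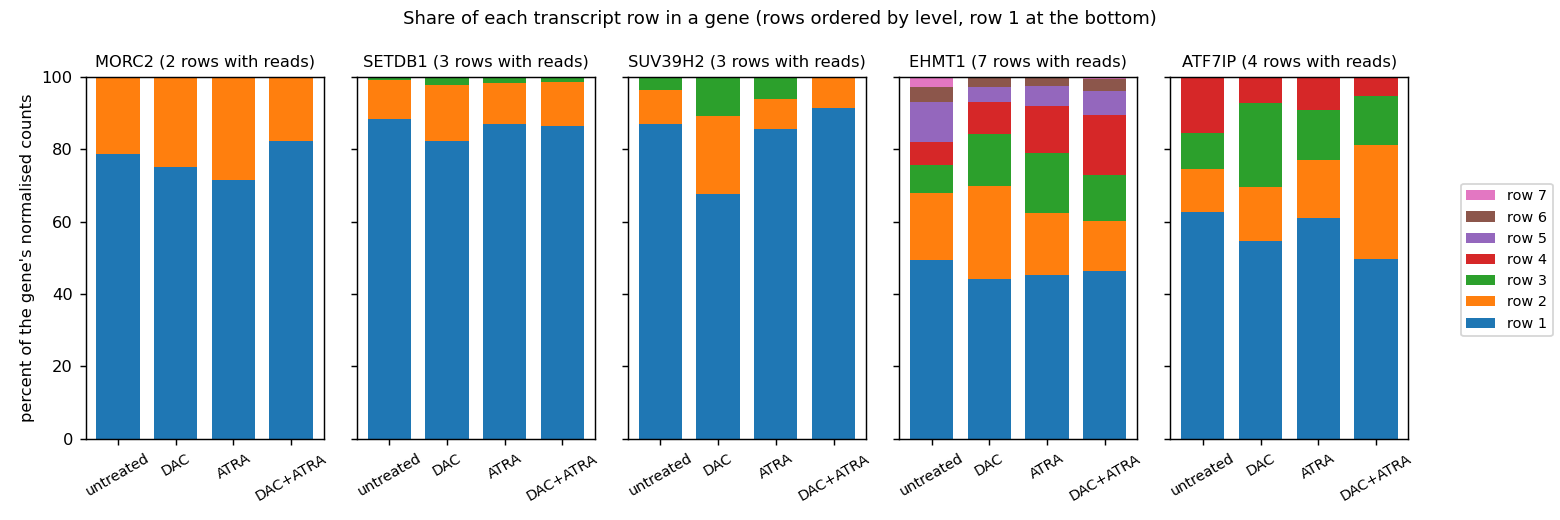
Share of the normalised counts of a gene (y axis, percent) that each transcript row held in the 4 groups (x axis), for 5 members with reads on more than 1 row. In SUV39H2 and ATF7IP the rows other than the leading one had at most 8 reads a library. For MORC2 the leading row held between 71.4% and 82.3%, and EHMT1 was divided over 7 rows with no row above 49.3%.

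EHMT1 (ENSG00000181090.21, chr9:137618992-137870016), the partner of G9a in mono- and dimethylation of H3K9, had 31.1, 36.5 and 40.8 normalised counts in untreated and 31.8, 65.9 and 55.5 in DAC. It had 55.5, 55.1 and 80.3 with ATRA and 40.6, 58.5 and 62.3 with DAC+ATRA. Only the ATRA group stood wholly above untreated. The log2 change with ATRA was 0.79 ± 0.28 (SE, limma adjusted p = 0.0329), not called. Its reads, 25 to 96 a library, were divided over 7 of its 8 rows.

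SUV39H1 (ENSG00000101945.17, chrX:48695554-48709016) ranged from 25.7 to 34.9 normalised counts without treatment, 15.2 to 36.1 after DAC, 12.5 to 31.4 after ATRA and 24.8 to 44.8 after both drugs. All groups overlapped, and the log2 change with ATRA was −0.65 ± 0.37 (SE, limma adjusted p = 0.180). Its paralog SUV39H2 (ENSG00000152455.16, chr10:14878820-14904315) had 22.6, 36.5 and 29.5 in the untreated libraries and 28.0, 12.5 and 23.9 after DAC. After ATRA it had 17.0, 3.7 and 8.4, and after both drugs 5.6, 9.0 and 21.4. Every library with ATRA was below every untreated library, while DAC overlapped with both. The log2 change of SUV39H2 was −1.69 ± 0.50 with ATRA (SE, limma adjusted p = 0.0121), a fold of 0.309 (95% interval 0.149 to 0.641), and −1.39 ± 0.50 under the combination (limma adjusted p = 0.0330). Neither passed the threshold. For ATRA, DESeq2 (−1.60, adjusted p 0.00586) and edgeR (−1.61, adjusted p 0.00977) did call it, and the value went from −2.17 (adjusted p 0.00316) without ATRA replicate 1 to −1.21 (0.0851) without ATRA replicate 2. For DAC+ATRA, 1 of 23 recomputed fits called it, the one without DAC+ATRA replicate 3 (−1.88, limma adjusted p = 0.00927). The other 22 did not call it, among them DESeq2 (adjusted p 0.0390) and edgeR (0.0431). Without DAC+ATRA replicate 1 the limma adjusted p rose to 0.158. The gene rests on 4 to 47 reads per library, and its SE was the highest among the 9 tested members.

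CBX5 (ENSG00000094916.16, chr12:54230942-54280133), which encodes HP1 alpha, had the most reads of the members, 1379 to 5100 a library. It had 2599.8, 2718 and 3199 normalised counts in the untreated libraries and 2178, 2423 and 2273 after DAC. After ATRA the values were 1786, 1802 and 1552, and after both drugs 1930.3, 2124 and 2105. The 4 groups were ordered untreated, DAC, DAC+ATRA and ATRA, and no group overlapped with a neighbour in that order. With ATRA it fell by 0.73 ± 0.10 on the log2 scale (SE, limma adjusted p = 1.67e-05), a fold of 0.605 (95% interval 0.520 to 0.704). With DAC+ATRA it fell by 0.46 ± 0.10 (limma adjusted p = 0.00151), a call lost without untreated replicate 3 (adjusted p 0.0141) or DAC+ATRA replicate 1 (0.0108). DAC gave −0.30 ± 0.10 (limma adjusted p = 0.0554), DAC+ATRA against DAC gave −0.16 ± 0.10 (limma adjusted p = 0.281) and DAC+ATRA against ATRA gave 0.26 ± 0.10 (limma adjusted p = 0.0826), so no step between neighbours in that order was called. The interaction was 0.57 ± 0.15 (limma adjusted p = 0.0368), which did not pass the threshold of 0.01. The row ENST00000209875.9 held nearly all CBX5 reads and gave −0.73 ± 0.11 with ATRA.

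The group means of TRIM28, ATF7IP, SUV39H1, SUV39H2 and CBX5 were lowest with ATRA, as was the summed level of genes of the cell cycle. Of these members only CBX5 was called against untreated, and ATF7IP hardly differed (18.8 with ATRA, 19.6 in untreated). Other members went the other way. MPHOSPH8 and EHMT1 had their highest group means with ATRA, and MORC2 was higher with ATRA than in untreated, none of them called by limma. SETDB1 was lowest with DAC+ATRA. The summed level of 26 proliferation genes was 21399 to 22949 normalised counts without treatment, 26109 to 28217 after DAC, 9047 to 12855 after ATRA and 15368 to 17838 after both drugs. With ATRA, 20 of the 26 fell and 1 rose (MCM7), with a median log2 change of −1.15, while 26.0% of all genes were called. With DAC+ATRA, 8 of the 26 (30.8%) were called lower against untreated and none higher. Of all genes, 14.4% were called lower in that comparison and 28.9% either way. Against ATRA alone, 9 were higher with DAC+ATRA, with 6.47% of all genes called higher and 11.9% either way. With DAC, 2 rose (PCNA and E2F2), or 7.69%, and none was called lower. The share of all genes with DAC was 4.29% called higher and 7.97% either way. Against untreated, DAC went with a higher sum and with lower CBX5 values (CBX5 not called), while ATRA went with less of both. Against ATRA alone, DAC+ATRA went with more of both (CBX5 not called). Against DAC alone, DAC+ATRA went with less of both (CBX5 not called). In that comparison 12 of the 26 were called lower and 1 higher, with 18.8% of all genes called. The part of proliferation in the values of these members was not tested.

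The partners of the members were described from lists of genes that share their pathways. Of 11 other HUSH and SETDB1 partners, all tested, 1 was called with DAC, 3 with ATRA and 3 with DAC+ATRA. The shares of all genes tested were 7.97%, 26.0% and 28.9% in the same order, and they hold for each list that follows. RESF1, which binds SETDB1 in the silencing of retroviral elements, had a mean of 14348 ± 296 normalised counts without treatment (SD, n = 3), 10086 ± 1509 after DAC, 7532 ± 225 after ATRA and 8362 ± 406 after both drugs. It fell in all 3 treatments, by 0.52 ± 0.10 after DAC (SE, limma adjusted p = 0.00207), 0.93 ± 0.10 after ATRA (8.37e-07) and 0.78 ± 0.10 after both drugs (7.99e-06). ATF7IP2, the paralog of ATF7IP, rose by 1.37 ± 0.37 with ATRA (limma adjusted p = 0.00669) from a low level of 9.3 ± 3.5 normalised counts in untreated. TASOR, the scaffold of HUSH, named after its values were seen, fell with DAC+ATRA by 0.72 ± 0.14 (limma adjusted p = 0.000368) and gave −0.31 with DAC and −0.20 with ATRA, neither called.

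Of 11 other partners of HP1 and of GLP and G9a, 9 were tested, and 0 were called with DAC, 3 with ATRA (26.0% of all genes) and 2 with DAC+ATRA (28.9% of all genes), CDYL2 higher and CBX3 lower, the latter named after its values were seen. CDYL2, a chromodomain protein that binds methylated H3K9, rose from 25.2 ± 14.5 normalised counts in untreated (SD, n = 3) to 860.7 ± 61.9 with ATRA, a log2 change of 5.19 ± 0.26 (SE, limma adjusted p = 8.15e-12). With DAC it had 36.6 ± 5.1 and with DAC+ATRA 606.9 ± 26.6. CHAF1A and CHAF1B, subunits of the histone chaperone CAF-1 that works at replication forks, fell with ATRA by 0.70 ± 0.13 (limma adjusted p = 0.000206) and 1.02 ± 0.19 (0.000351). Against untreated they gave −0.09 and −0.08 with DAC+ATRA, neither called.

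Among 11 H3K9 demethylases, 9 were tested, and 0 were called with DAC, 2 with ATRA (26.0% of all genes) and 5 with DAC+ATRA (28.9%). PHF2 rose by 0.78 ± 0.14 with ATRA (SE, limma adjusted p = 0.000152) and JMJD1C by 0.52 ± 0.11 (0.00066). The 5 called with DAC+ATRA were PHF2, JMJD1C and KDM4A, higher, and KDM7A and KDM4C, lower, the last 3 of them named after their values were seen. Of 5 genes of DNA methylation, 4 were tested. DNMT3A, the de novo methyltransferase, rose with ATRA by 1.55 ± 0.16 (limma adjusted p = 2.27e-07), from 187.7 ± 28.0 to 550.5 ± 64.6 normalised counts (SD, n = 3). With DAC it had a mean of 143.3 and with DAC+ATRA of 289.4. It was the one gene of this list called with ATRA and with DAC+ATRA (0.63 ± 0.16, limma adjusted p = 0.00358), and 0 were called with DAC. DNMT1, the maintenance methyltransferase and the main target of DAC, named after its values were seen, gave 0.80 ± 0.27 with DAC (limma adjusted p = 0.0507).

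Of 13 genes of the NuRD complex, a deacetylase and remodeller that TRIM28 also recruits, 11 were tested. Beside the shares of 7.97%, 26.0% and 28.9% of all genes, 0 were called with DAC, with ATRA 1 (MTA2, 0.63 ± 0.17, limma adjusted p = 0.00801) and with DAC+ATRA 2, both higher (MTA2 and HDAC1, the latter named after its values were seen). Of 12 KRAB zinc finger genes known to bind repeats or imprinted regions, 10 were tested, and 1 was called with ATRA (26.0% of all genes). ZNF445, a guardian of imprints, fell with ATRA by 0.83 ± 0.15 (SE, limma adjusted p = 0.000144) and was the only one of the list called with a single drug. With DAC+ATRA, 1 was called higher (ZNF587, named after its values were seen).

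**Figure D4:**
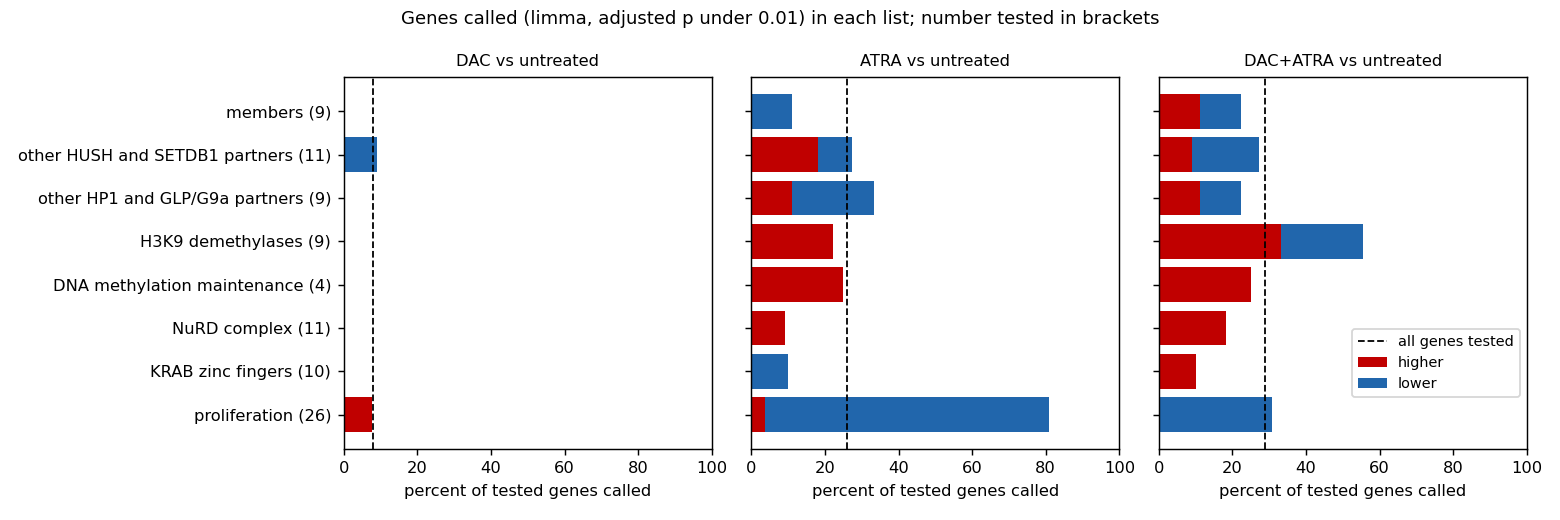
Percent of tested genes called higher (red) or lower (blue) by limma in 8 lists (y axis, with the number tested) for the 3 comparisons with untreated, beside the percent over all genes tested (dashed line). With ATRA the proliferation list stands far above the line of 26.0%, with 20 of 26 genes lower, and the 9 tested members stand below it with 1.

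Over the 12 libraries, the genes whose log2 levels were most like those of the 3 members with the widest range of group means were found among all tested genes. Those most like SUV39H2 were OXCT2 (Pearson r 0.92), AP006333.1 (0.91) and ZFP92 (0.88). Those most like MORC2 were PILRB (0.99), ADGRG5 (0.96) and SLC35B1 (0.95). For EHMT1 they were TUBG2 (0.88), UTRN (0.85) and LRRC8A (0.84). The 12 points share 4 groups and their depths, and the highest of 10642 values is picked, so the coefficients are given as a description with no test.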

How the data were processed

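RNA of 12 MOLM-13 libraries, 3 in each of 4 groups, was analysed. The authors depleted ribosomal RNA and prepared stranded paired-end libraries. Per the labels, their processing used STAR, HTSeq and DESeq2 with the hg38 assembly. The counting mode and annotation release are not given in the sources used here. The deposited values are a normalised signal: read counts divided by 1 size factor per library. In each library 100% of values were whole multiples of 1 step (tolerance 0.01 reads), so whole reads were recovered for the count tests. The table calls its untreated columns CTRL, which no other group could match.

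The 100502 rows were summed per symbol. Biotypes and coordinates came from GENCODE release 44 (GRCh38, the same assembly as hg38), which matched 88.9% of rows. Differences were tested on log2(normalised count + 1) with limma 3.58.1 (R 4.3.3), using a group-means model of all libraries without further covariates and a moderated variance with an intensity trend. The script was tested on simulated data. Alternatives tried were count models on the whole reads (edgeR 4.0.16, DESeq2 1.42.0), other scalings, pseudocounts of 0.1 and 5, other filters, all symbols, only the compared groups, a replicate block, the highest row only, a threshold of 0.05, and leaving out each library.

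All members were to be named. From each list the called genes with the largest change in a single-drug comparison were named, at most 3 a list. Some genes of the lists enter the counts and are not reported here by name. The 3 tested genes with the highest Pearson r were named for the 3 members of widest range. The members and lists were chosen with earlier results of these data known. Promoter sequences came from RefSeq (GRCh38.p14). Intervals of 95% cover the spread between libraries only.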

Additional observations from a re-analysis of the deposited data

How the results depend on the processing

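Over 54 values (9 members in 6 comparisons) and 1278 recomputed values, 1217 kept their direction and their side of the threshold, 16 were no longer called, 11 were newly called and 34 changed sign. Of the 34, 0 belonged to a value called under either setting, and the lowest adjusted p among them was 0.609. The fall of CBX5 with ATRA and the rise of MORC2 with DAC+ATRA against untreated were called under every alternative run. The number of members called with ATRA against untreated was 1, and it was 5 at an adjusted p under 0.05, 3 with DESeq2, and 2 with edgeR, with a pseudocount of 5 and when the fit held the compared groups alone. All genes called numbered 2772 in the reported fit, and 3876, 3168, 2967, 2820 and 2973 under these settings in the same order. For DAC+ATRA against ATRA it was 2, and 1 with no filter on low values (1270 and 1134 of all genes). For the interaction it was 0, and 1 at an adjusted p under 0.05 (170 and 386 of all genes). Leaving out 1 library gave 0 to 1 members for DAC, 1 to 2 for ATRA, 1 to 3 for DAC+ATRA against untreated, 0 to 1 for DAC+ATRA against DAC, 0 to 2 for DAC+ATRA against ATRA and 0 for the interaction. The cause of these shifts was not tested. With a filter at 50 normalised counts, ATF7IP, SUV39H1 and SUV39H2 were not tested.

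Values that changed sign are log2 changes. With the highest row only they were −0.011 (ATF7IP, DAC), −0.011 (MORC2, DAC), −0.039 (ATF7IP, DAC+ATRA against untreated), −0.029 (ATF7IP, DAC+ATRA against DAC) and 0.00976 (SETDB1, DAC+ATRA against DAC). Total-count scaling gave −0.00343 (SUV39H1, DAC+ATRA against untreated). For DAC+ATRA against DAC, DESeq2 gave −0.00317 (ATF7IP) and 0.00602 (MPHOSPH8) and edgeR gave −0.021 (ATF7IP). Leaving out 1 library gave −0.077 to 0.15 for MORC2 with DAC, −0.32 to 0.17 for ATF7IP with ATRA and −0.22 to 0.19 for SUV39H1 with DAC+ATRA. For DAC+ATRA against DAC it gave −0.28 to 0.061 for TRIM28, −0.16 to 0.077 for SETDB1, −0.092 to 0.21 for ATF7IP, −0.091 to 0.10 for MPHOSPH8 and −0.19 to 0.32 for EHMT1. It gave −0.19 to 0.78 for SUV39H2 in DAC+ATRA against ATRA, and for the interaction −0.044 to 0.20 (SETDB1) and −0.15 to 0.35 (ATF7IP).

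With the replicate number as a block, DAC+ATRA against ATRA called 1 member in place of 2, as TRIM28 had an adjusted p of 0.0115. Same-numbered libraries did not deviate together (r −0.26 to 0.11 over 18 pairs), so the numbers share no known pairing, and the block changed no other call of a member.

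Depth limits ATF7IP, SUV39H1, SUV39H2 and EHMT1, which held under 100 reads in each library. Libraries of the groups with DAC were shallower than the rest. No result met the conditions for a closer look, since groups of 3 were not tested for outlying libraries and the interaction was called for 0 members.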
